A study of Homo sapiens with 60 samples.

Results

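The 32 genes described here encode proteins of the Fanconi anaemia pathway, of homologous recombination and of mismatch repair. They were listed by name with earlier results of these data known, and the rule that lists them uses no measured value. All 32 were found among the 19712 genes that both deposited tables share. By role they are 8 genes of the Fanconi core complex (FANCA, FANCB, FANCC, FANCE, FANCF, FANCG, FANCL and FANCM), 3 genes of the step that marks FANCD2 and FANCI with ubiquitin (FANCD2, FANCI and UBE2T), 5 BRCA genes and partners (BRCA1, BARD1, BRCA2, PALB2 and BRIP1), 8 paralogs or stimulating factors of the recombinase (RAD51B, RAD51C, RAD51D, XRCC2, XRCC3, RAD51AP1, RAD54L and RAD54B), 5 genes of end resection, of DNA unwinding and of polymerase-mediated end joining (RBBP8, EXO1, BLM, RECQL4 and POLQ) and 3 mismatch repair genes (MSH3, MSH6 and PMS2). Their RNA was measured in PC9, HCC827, H1975 and HCC2935, non-small cell lung cancer lines whose growth depends on a mutated epidermal growth factor receptor (EGFR), with 3 biological replicates in each of 5 arms and 60 libraries in all. In the DMSO arm the cells received the vehicle for 24 h. In the acute arm they received 500 nM osimertinib, a kinase inhibitor of mutant EGFR, for 24 h, and the parental cells of both these arms had first grown without drug for 21 days. Drug-tolerant persisters (DTPs) were the cells left after 21 days in 500 nM osimertinib. From such cells the drug was removed for 24 h in the short washout, and in the long washout for 7 days in PC9, 4 days in HCC827, 3 days in H1975 and 10 days in HCC2935, so the length of the long washout and the line cannot be told apart.

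In the Fanconi pathway, a ubiquitin ligase built from core proteins, with UBE2T as its ubiquitin-conjugating enzyme, attaches ubiquitin to the FANCD2-FANCI pair where a crosslink between the DNA strands has stopped a replication fork. Homologous recombination then copies the lost sequence from the sister chromatid: BRCA1 and BARD1 favour trimming of the broken ends, and PALB2 and BRCA2 load the recombinase, which its paralogs and the RAD54 motor proteins help. Mismatch repair corrects copying errors of the replication machinery. Many of these genes are transcribed mainly in dividing cells, as the repair they serve takes place while DNA is copied.

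The libraries held 17.7 to 49.1 M estimated counts. All 60 libraries were most like libraries of their own line, and the lines carried RNA of epithelial markers, with EPCAM at 18.1 to 795 TPM and KRT8 at 575 to 6127 TPM. The T cell marker CD3E was listed at 0 in 42 libraries and reached at most 0.246 TPM. Another arm of the same line was on average closer than the own replicates for 11 libraries, all 3 DTP and all 3 short washout libraries of HCC827, all 3 DTP libraries of H1975, and 1 long washout library each of PC9 and HCC2935. The PC9 library was replicate 3 of the long washout, which lay closest to the short washout. The long washout was defined in the labels by renewed exponential growth, yet MKI67, a marker of dividing cells, stood at 147 to 221 CPM in the H1975 long washout, against 117 to 339 CPM in its DTPs, 309 to 439.8 CPM in its short washout and 649 to 765 CPM in DMSO. In HCC827 it stood at 165 to 185 CPM in the long washout and at 442 to 528 CPM in DMSO. CPM are counts scaled to a common library size by TMM, the trimmed mean of M-values.

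In DMSO the levels per transcript length, in TPM (a unit scaled to the sum of all transcripts), differed widely between members. MSH6, which pairs with a partner to find single-base mismatches, was the highest by the median of the line means, with 115 ± 3.56 TPM in PC9, 57.1 ± 7.1 TPM in HCC827, 94 ± 5.91 TPM in H1975 and 118 ± 7.29 TPM in HCC2935 (SD, n = 3). FANCI, XRCC3, RECQL4 and RAD51C came next, at medians of 67.9, 64.7, 60.9 and 57.8 TPM, and their line means overlapped one another. UBE2T was the lowest, with 1.77 ± 0.74 TPM in PC9 and 5.45 ± 0.225 TPM in H1975, and BRCA2, FANCE, FANCF and FANCB also lay at medians under 7 TPM. The counts of 30 members differed between the lines in DMSO (edgeR quasi-likelihood F-test over 12 libraries, adjusted p under 0.05), as did those of 91.2% of all genes tested, and MSH3 and BRCA2 did not pass. RBBP8, the nuclease cofactor that starts end resection, had the widest span, from 21.4 ± 3.01 TPM in PC9 to 107 ± 2.87 TPM in HCC2935. FANCC, of the core complex, had the narrowest, with line means of 16.6 to 17.2 TPM.

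**Figure D1:**
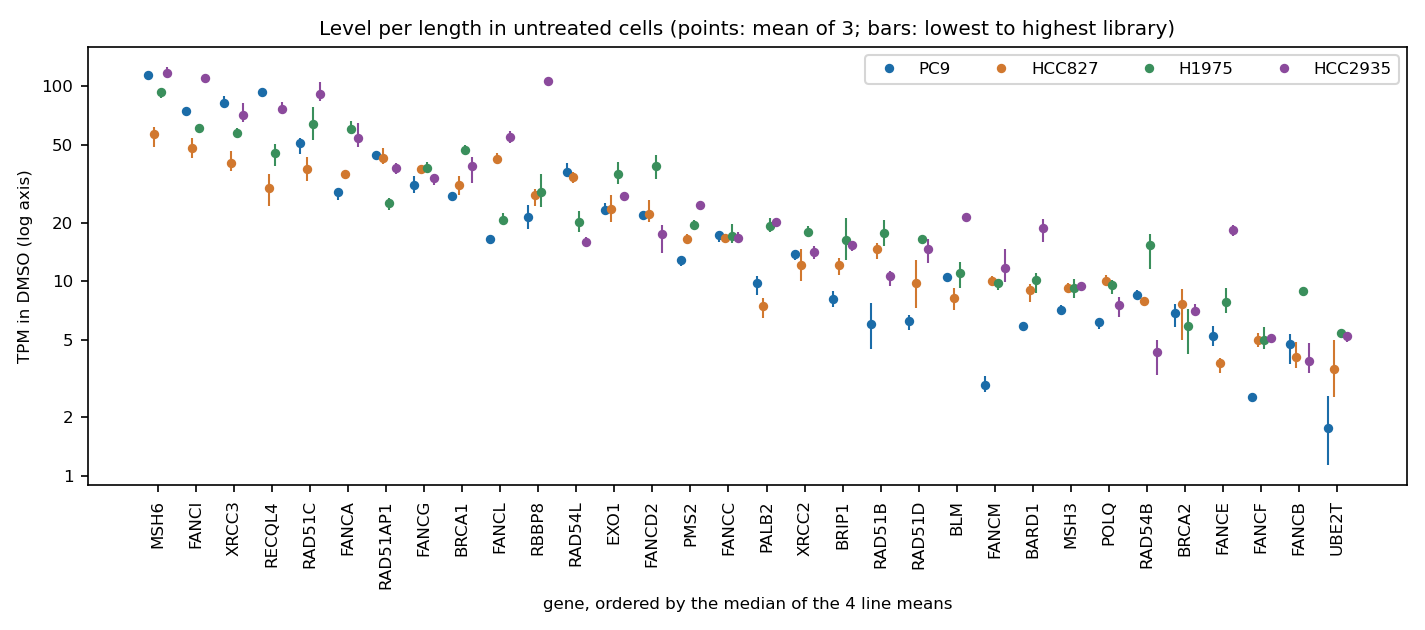
TPM of the 32 genes in the DMSO arm (log axis), ordered by the median of the 4 line means; points are means of 3 libraries and bars run from the lowest to the highest library. MSH6 lay highest at 57.1 to 118 TPM by line mean, UBE2T lowest at 1.77 to 5.45 TPM, and RBBP8 in HCC2935 stood apart from the other lines.

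After 24 h of osimertinib most members were lower than in DMSO in every line, and after 21 days most still were, though by less. Under acute osimertinib the median log2 fold change of the members was -1.54 in PC9, -1.62 in HCC827, -1.63 in H1975 and -1.43 in HCC2935, where the median of all genes tested lay between 0.01 and 0.03. In PC9, 26 of the 32 members fell and 1 rose (edgeR quasi-likelihood F-test on the 6 libraries compared, Benjamini-Hochberg adjusted p under 0.05), while 34.1% of all genes fell and 34.4% rose. In HCC827, 26 fell and 1 rose, against 22.1% and 20.2% of all genes. In H1975, 25 fell and 1 rose, against 23.7% and 21.2%. In HCC2935, 29 fell and 1 rose, against 25.1% and 22.0%. The same 23 members fell in all 4 lines, which include every member of the ubiquitin step and every member of resection, unwinding and end joining. The share of all genes that fell in all 4 lines was not computed.

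In DTPs the median log2 fold change against DMSO was -0.79 in PC9, -0.89 in HCC827, -1.16 in H1975 and -1.07 in HCC2935, where all genes lay at 0.02 or closer to 0. In PC9, 24 members fell and 1 rose, against 35.9% and 35.4% of all genes. In HCC827, 23 fell and none rose, against 17.2% and 19.4%. In H1975, 25 fell and 1 rose, against 23.4% and 22.4%. In HCC2935, 25 fell and 1 rose, against 27.2% and 25.3%. The same 16 members fell in all 4 lines, FANCA, FANCG, FANCL, FANCM, FANCD2, FANCI, BRCA1, XRCC2, XRCC3, RAD51AP1, RAD54L, EXO1, BLM, RECQL4, POLQ and MSH6. Again, no share of all genes was computed for the 4 lines together. In bulk RNA, fewer cells that transcribe a gene and less RNA per cell cannot be told apart. Each acute and DTP comparison of a line used the same 3 DMSO libraries. On the log2 TPM scale the median of all genes in DTPs lay at 0.29 in PC9, with 6745 genes higher and 3589 lower, and at 0.17 in HCC2935, with 4726 higher and 2858 lower, and against that shift 20 members still fell in PC9 and 24 in HCC2935, with 2 higher in each.

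**Figure D2:**
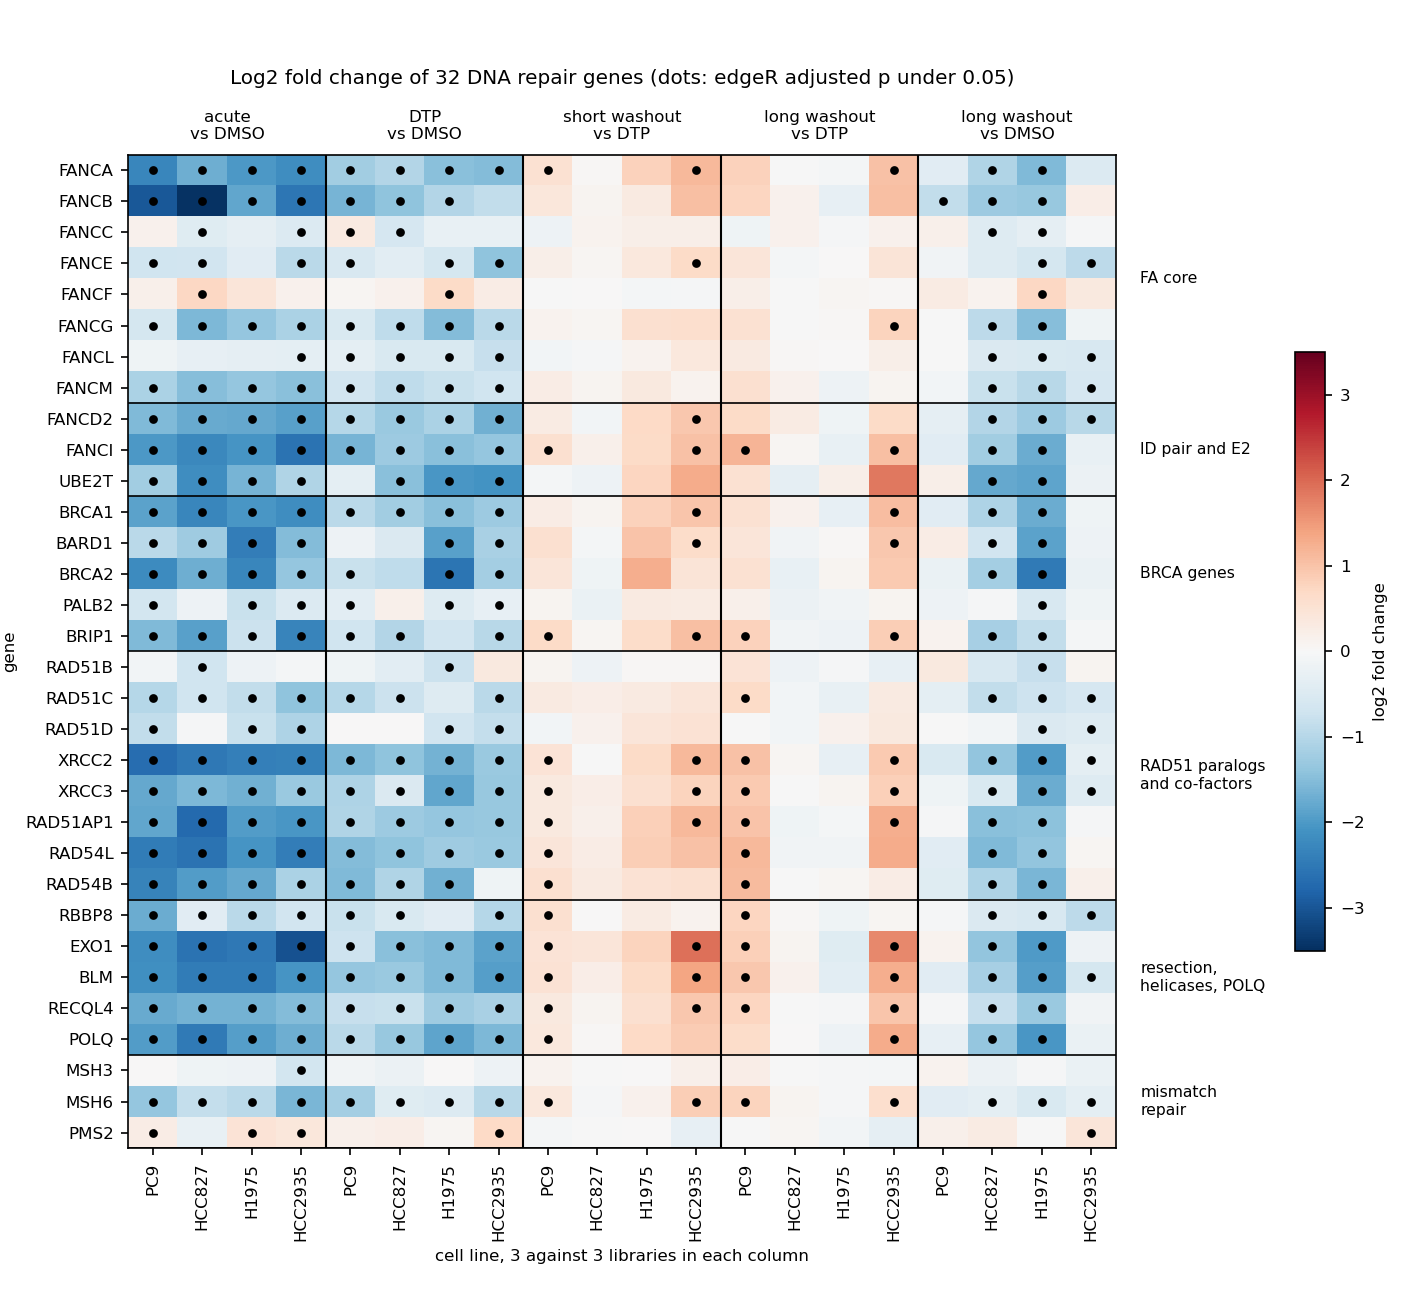
Log2 fold change (colour) of each member (vertical axis, grouped by role) in 5 comparisons for each of the 4 lines (horizontal axis), with a dot where the edgeR adjusted p is under 0.05. The acute and DTP columns are mostly blue in every line, and the columns of both washouts against DTPs are mostly red in PC9 and HCC2935. The short washout against DTPs is also mostly red in H1975, without dots, and pale in HCC827. Those of the long washout against DTPs are near 0 in HCC827 and H1975. The long washout against DMSO is mostly blue in HCC827 and H1975 and paler in PC9 and HCC2935. FANCF and PMS2 have no dot on a blue field in the 5 comparisons shown, which leave out DTPs against the acute arm.

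The promoters of members that moved together, and of those that did not, are shown with the motifs that dividing cells use. A window of 250 bases before to 50 bases after the gene's start was present in RefSeq (GRCh38.p14) for 29 of the 32 members. Motifs were searched as exact letters on both strands, E2F as TTTCCCGC, TTTGGCGC, TTTGCCGC or TTTCGCGC, the cell cycle homology region (CHR) as TTTGAA or TTCGAA, and the CCAAT box as CCAAT. E2F letters were present in 8 members, 27.6% of the 29, and in 3.33% of 27305 windows of the same length. CHR letters were in 4 members, 13.8%, against 16.6% of all windows, and CCAAT in 12, 41.4%, against 35.7%. The 8 with E2F letters are EXO1, FANCA, FANCC, FANCD2, MSH3, MSH6, PMS2 and XRCC2, of which EXO1, FANCA, FANCD2, MSH6 and XRCC2 fell in DTPs of all 4 lines, MSH3 was called in none, PMS2 was higher in HCC2935, and FANCC was higher in PC9 and lower in HCC827. The windows printed are those of the member with the lowest mean log2 fold change of DTPs against DMSO in each role and of the 2 members with the highest, each on the gene's strand from 5′ to 3′ in lower case with motif matches in capitals; where a match is to the other strand, its reverse complement stands in capitals.
FANCA, chr16:89816598-89816897, minus strand, mean -1.31: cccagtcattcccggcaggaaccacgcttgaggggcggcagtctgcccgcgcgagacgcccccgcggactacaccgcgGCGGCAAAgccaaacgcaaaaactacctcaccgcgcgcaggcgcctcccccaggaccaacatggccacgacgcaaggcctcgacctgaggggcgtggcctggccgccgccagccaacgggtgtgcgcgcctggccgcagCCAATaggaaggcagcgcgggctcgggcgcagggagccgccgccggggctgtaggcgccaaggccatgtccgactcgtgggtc
UBE2T, chr1:202341887-202342186, minus strand, mean -1.48: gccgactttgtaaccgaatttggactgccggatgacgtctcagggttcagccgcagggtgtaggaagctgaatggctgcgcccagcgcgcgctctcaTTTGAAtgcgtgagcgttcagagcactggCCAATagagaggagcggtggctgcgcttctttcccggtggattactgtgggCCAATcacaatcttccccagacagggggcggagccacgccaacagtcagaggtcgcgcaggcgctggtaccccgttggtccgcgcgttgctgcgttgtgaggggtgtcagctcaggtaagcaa
BRCA2, chr13:32315258-32315557, plus strand, mean -1.36: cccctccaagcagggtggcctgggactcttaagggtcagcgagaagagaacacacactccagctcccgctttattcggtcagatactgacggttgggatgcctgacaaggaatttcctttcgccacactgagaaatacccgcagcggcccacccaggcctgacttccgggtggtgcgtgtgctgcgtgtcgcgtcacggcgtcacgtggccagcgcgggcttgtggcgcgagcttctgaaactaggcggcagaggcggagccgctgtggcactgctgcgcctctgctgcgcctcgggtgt
XRCC2, chr7:152676092-152676391, minus strand, mean -1.48: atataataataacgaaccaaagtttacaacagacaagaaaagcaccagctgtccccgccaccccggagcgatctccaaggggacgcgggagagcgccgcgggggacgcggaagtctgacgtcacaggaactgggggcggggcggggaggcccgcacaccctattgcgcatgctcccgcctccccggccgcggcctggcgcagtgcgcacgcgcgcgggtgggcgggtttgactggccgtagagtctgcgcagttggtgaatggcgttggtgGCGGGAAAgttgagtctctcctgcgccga
BLM, chr15:90717096-90717395, plus strand, mean -1.53: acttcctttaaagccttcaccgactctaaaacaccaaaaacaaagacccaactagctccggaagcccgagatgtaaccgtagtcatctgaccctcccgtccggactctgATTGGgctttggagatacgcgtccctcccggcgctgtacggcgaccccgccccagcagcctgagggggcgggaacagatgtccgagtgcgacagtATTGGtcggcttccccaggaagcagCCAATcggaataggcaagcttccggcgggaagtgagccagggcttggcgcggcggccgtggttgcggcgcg
MSH6, chr2:47782895-47783194, plus strand, mean -0.77: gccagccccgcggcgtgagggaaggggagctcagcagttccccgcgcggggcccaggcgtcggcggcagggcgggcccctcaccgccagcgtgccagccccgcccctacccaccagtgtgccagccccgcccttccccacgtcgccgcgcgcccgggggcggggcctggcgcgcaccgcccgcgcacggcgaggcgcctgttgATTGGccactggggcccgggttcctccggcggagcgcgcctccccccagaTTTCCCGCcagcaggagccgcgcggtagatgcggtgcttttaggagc
FANCF, chr11:22625774-22626073, minus strand, mean 0.29: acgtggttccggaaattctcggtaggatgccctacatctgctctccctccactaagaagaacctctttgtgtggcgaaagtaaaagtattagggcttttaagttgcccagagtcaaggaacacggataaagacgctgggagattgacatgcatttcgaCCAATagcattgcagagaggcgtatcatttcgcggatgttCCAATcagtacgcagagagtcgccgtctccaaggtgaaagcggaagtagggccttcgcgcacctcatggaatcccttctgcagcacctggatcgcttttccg
PMS2, chr7:6009057-6009356, minus strand, mean 0.29: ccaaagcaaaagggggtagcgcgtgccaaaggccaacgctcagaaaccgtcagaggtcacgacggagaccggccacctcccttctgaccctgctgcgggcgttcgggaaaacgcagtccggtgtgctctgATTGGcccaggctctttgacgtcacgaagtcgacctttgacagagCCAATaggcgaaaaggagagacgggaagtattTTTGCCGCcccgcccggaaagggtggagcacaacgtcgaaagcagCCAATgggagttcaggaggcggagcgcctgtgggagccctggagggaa
The BRCA2 window holds none of these letters although BRCA2 fell in 3 of the 4 lines, and the PMS2 window holds E2F letters and 3 CCAAT boxes although PMS2 was not lower in any. A match is a description of the letters and not a binding site.

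Among the 8 genes of the Fanconi core complex, FANCA moved most in DTPs by the mean over the lines and FANCC least. FANCA, a subunit that pairs with FANCG (chromosome 16, 89737549 to 89816657, minus strand), stood at 55, 48.3 and 54.6 CPM in the 3 DMSO libraries of PC9, at 11.4, 9.04 and 12.8 CPM under acute osimertinib and at 23.1, 24.7 and 22.1 CPM in DTPs. In HCC827 these values were 56.1, 60.1 and 59, then 16.5, 19.9 and 18.1, then 32, 27.1 and 26.7 CPM. The libraries of the 3 arms did not overlap in either line, with DMSO highest and acute lowest. In H1975 FANCA stood at 91.3, 100.1 and 88.9 CPM in DMSO, 24.6, 23.2 and 25.6 in the acute arm and 31.5, 38.3 and 33.6 in DTPs. In HCC2935 it stood at 70.6, 90.6 and 65.1 CPM, 12.2, 20.6 and 18.4 CPM and 27.7, 23.7 and 27.8 CPM. The same order held in both, and the log2 fold change of DTPs against DMSO ran from -1.53 (standard error 0.14, edgeR adjusted p = 3.37e-05) in HCC2935 to -1.01 (standard error 0.13, edgeR adjusted p = 6.11e-04) in HCC827.

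FANCC, also a core subunit (chromosome 9, 95099054 to 95426796, minus strand), had no common direction. In PC9 it stood at 35.7, 39.6 and 40.4 CPM in DMSO, 45.1, 48 and 38.1 CPM in the acute arm and 49.8, 49.4 and 48.8 CPM in DTPs, higher in DTPs (log2 fold change 0.32, edgeR adjusted p = 0.00494). In HCC827 it stood at 31.5, 33.7 and 35.2 CPM, 24.5, 26 and 25.8 CPM and 21.8, 20.7 and 23.1 CPM, lower in DTPs (log2 fold change -0.60, edgeR adjusted p = 0.00791). In H1975 the values were 29.4, 36.4 and 30.2 CPM in DMSO, 27.7, 25 and 27.2 CPM in the acute arm and 25.7, 28.9 and 26.7 CPM in DTPs, and in HCC2935 30.7, 27.5 and 25.6 CPM, 17.9, 19.9 and 23.4 CPM and 27.3, 21 and 23 CPM. Neither line passed the test for DTPs (edgeR adjusted p = 0.102 and 0.143), and the acute fall in HCC2935 was lost when any of 3 libraries was left out (edgeR adjusted p up to 0.073). The difference of the DTP effect of FANCC between the lines passed its own test (interaction of line and arm, edgeR adjusted p = 3.34e-04). Of the other 6 core genes, FANCB, which joins the ligase subunit FANCL in a subcomplex, had the steepest acute change, -3.45 in HCC827 and -2.98 in PC9 on the log2 scale. FANCG and FANCM fell in all 4 lines in both treated arms. FANCL, the ligase subunit, fell under acute osimertinib only in HCC2935 by this test and in DTPs in all 4 lines, by 0.34 to 0.81 on the log2 scale. FANCF, an adaptor of the complex, was singled out after its values were seen as 1 of 2 members that fell in no line in either arm. In H1975 FANCF stood at 14.6, 18.1 and 14.5 CPM in DMSO and 25.9, 22 and 29.2 CPM in DTPs, without overlap (log2 fold change 0.67, edgeR adjusted p = 0.00645). In HCC827 FANCF stood at 18.1, 15.5 and 17.1 CPM in DMSO and 30.9, 29.9 and 25.2 CPM under acute osimertinib, again without overlap (log2 fold change 0.73, edgeR adjusted p = 0.00296), and 19.9, 17.1 and 19 CPM in DTPs. FANCF lies opposite GAS2 on the other strand and FANCL opposite VRK2, and the strand used in counting is not given in the sources used here, so reads of such partners cannot be told apart.

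In the ubiquitin step, UBE2T moved most and FANCD2 least in DTPs, yet all 3 genes fell under acute osimertinib in all 4 lines. UBE2T (chromosome 1, 202331657 to 202341980, minus strand) had few counts, with 3 in the lowest library and under 10 in 7 libraries. In PC9 it stood at 0.545, 0.776 and 1.24 CPM in DMSO, 0.374, 0.427 and 0.337 CPM in the acute arm and 0.681, 0.557 and 0.848 CPM in DTPs. In HCC827 it stood at 1.34, 1.1 and 2.17 CPM, 0.168, 0.286 and 0.565 CPM and 0.356, 0.732 and 0.555 CPM. DTPs overlapped DMSO in PC9 but not in HCC827. In H1975 UBE2T stood at 2.28, 2.06 and 2.18 CPM in DMSO, 0.748, 0.794 and 0.678 CPM in the acute arm and 0.64, 0.503 and 0.48 CPM in DTPs, and in HCC2935 at 1.77, 1.96 and 1.86 CPM, 0.804, 0.773 and 1.14 CPM and 0.505, 0.43 and 0.377 CPM. In both of these lines DTPs lay below the acute libraries. The log2 fold change of DTPs against DMSO was -2.09 in HCC2935 (edgeR adjusted p = 0.00162) and -2.04 in H1975 (edgeR adjusted p = 9.12e-04), and -0.33 in PC9, which did not pass (edgeR adjusted p = 0.481). The HCC827 call was lost when any of its 6 libraries was left out (edgeR adjusted p up to 0.18), and the acute calls were lost without any of 5 libraries in PC9 and any of 5 in HCC2935.

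FANCD2, which with FANCI receives the ubiquitin mark (chromosome 3, 10026414 to 10101930, plus strand), stood in PC9 at 57.5, 61.1 and 61.4 CPM in DMSO, 19.3, 13.7 and 31.1 CPM in the acute arm and 29.1, 32 and 31.5 CPM in DTPs. In HCC827 it stood at 63.7, 48.9 and 50.7 CPM, 16.6, 19.9 and 13.1 CPM and 18.1, 28.2 and 19.3 CPM. All treated libraries of both lines lay below those in DMSO. In H1975 the values were 90.4, 100.1 and 78 CPM, 27.2, 25.8 and 28.2 CPM and 33.1, 58.5 and 36.7 CPM, where DTP replicate 2 lay highest of the DTPs. In HCC2935 they were 29.1, 40.5 and 37.3 CPM, 8.79, 10.5 and 9.71 CPM and 12.3, 8.22 and 13.3 CPM. FANCD2 fell by 1.00 (PC9) to 1.67 (HCC2935) on the log2 scale in DTPs. FANCI, its partner, fell by 2.00 to 2.57 under acute osimertinib and by 1.28 to 1.62 in DTPs. FANCI overlaps POLG on the other strand and FANCD2 has 1 named pseudogene.

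**Figure D3:**
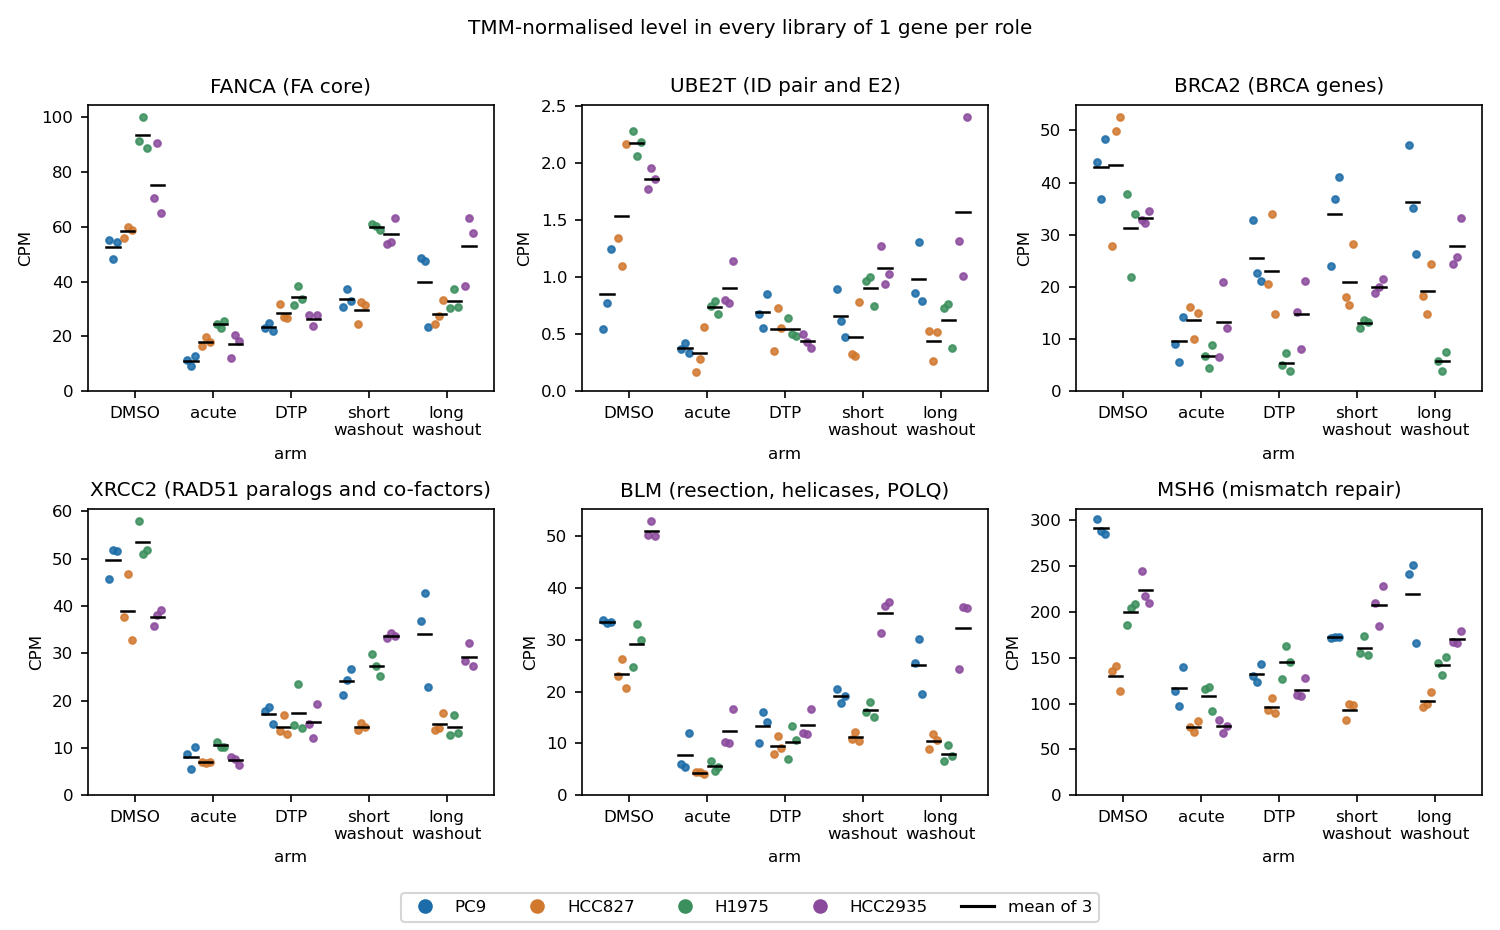
TMM-normalised CPM (linear axis from 0) in each of the 60 libraries for the member of each role with the largest mean change in DTPs, by arm (horizontal axis) and line (colour), with the mean of 3 as a black bar. In both washouts every PC9 and HCC2935 library lies above every HCC827 library for XRCC2, BLM and MSH6. For BLM and MSH6 the same order holds in DMSO, and for XRCC2 it does not. As a percentage of its DMSO mean, MSH6 stood at 59.2% in PC9, 71.9% in HCC827 and 92.6% in HCC2935 in the short washout. In the long washout these values were 75.3%, 78.9% and 76.4%.

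Of the BRCA genes and partners, 4 fell under acute osimertinib in all 4 lines and PALB2 in 3. BRCA2, which brings the recombinase to resected DNA (chromosome 13, 32315474 to 32400266, plus strand), stood in PC9 at 43.9, 36.9 and 48.3 CPM in DMSO, 8.97, 5.67 and 14.3 CPM in the acute arm and 32.9, 22.7 and 21 CPM in DTPs. In HCC827 it stood at 27.8, 49.8 and 52.5 CPM, 16.1, 10.1 and 14.9 CPM and 20.5, 33.9 and 14.7 CPM. The DTP and DMSO libraries overlapped in HCC827 and not in PC9. In H1975 BRCA2 stood at 37.8, 21.9 and 33.9 CPM, 6.76, 4.42 and 8.89 CPM and 5.12, 7.26 and 3.87 CPM, and in HCC2935 at 32.9, 32.2 and 34.5 CPM, 6.56, 20.9 and 12.1 CPM and 15.2, 8.14 and 21.1 CPM. The log2 fold change of DTPs against DMSO was -2.56 in H1975 (standard error 0.28, edgeR adjusted p = 2.74e-04), the lowest of any member in any line, and -0.79 in PC9, -0.90 in HCC827 (edgeR adjusted p = 0.0573) and -1.18 in HCC2935. The HCC827 value passed with DESeq2, with a replicate block, and without DMSO replicate 1 or DTP replicate 2. The DTP effect on BRCA2 differed between lines (edgeR adjusted p = 0.00858).

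PALB2, the bridge between BRCA1 and BRCA2 (chromosome 16, 23603160 to 23641310, minus strand), changed least of this role. In PC9 it stood at 23.7, 29.9 and 28.4 CPM in DMSO, 18.5, 20.2 and 15.2 CPM in the acute arm and 24.2, 19.1 and 22.4 CPM in DTPs, and in HCC827 at 19.4, 16.2 and 21.1 CPM, 17.8, 17.1 and 16.7 CPM and 21.2, 21.8 and 20.5 CPM. In H1975 it stood at 42.2, 48.8 and 45 CPM, 27.9, 28.8 and 26.7 CPM and 31.7, 35.9 and 34.9 CPM, and in HCC2935 at 45.1, 43.4 and 39 CPM, 36.8, 28.3 and 28 CPM and 37.1, 35 and 32.8 CPM. DTPs overlapped DMSO in PC9 and HCC827 and lay below it in H1975 and HCC2935. The falls in DTPs of PC9 and HCC2935, 0.36 and 0.30 on the log2 scale, were lost without any of 4 and any of 4 libraries (edgeR adjusted p up to 0.0782 and 0.164) and on the log2 TPM values. BRCA1 fell by 1.86 to 2.29 in the acute arm and by 0.95 to 1.46 in DTPs. BARD1, its partner in a ubiquitin ligase, differed between lines, with -1.89 in H1975 and -1.15 in HCC2935 in DTPs, both passing, and -0.52 in HCC827 and -0.17 in PC9, neither passing (difference between lines, edgeR adjusted p = 0.0103). BRIP1, a helicase that binds BRCA1, fell in the acute arm of every line by 0.74 (H1975) to 2.30 (HCC2935).

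Among the recombinase paralogs and stimulating factors, XRCC2 moved most in DTPs and RAD51B least. XRCC2, a paralog (chromosome 7, 152644779 to 152676165, minus strand), stood in PC9 at 45.7, 51.8 and 51.6 CPM in DMSO, 8.74, 5.45 and 10.2 CPM in the acute arm and 17.9, 18.6 and 15 CPM in DTPs. In HCC827 it stood at 37.6, 46.6 and 32.7 CPM, 7.09, 6.86 and 7.06 CPM and 13.5, 17 and 12.9 CPM. The 3 arms were apart in both lines. In H1975 the values were 57.9, 51 and 51.8 CPM, 11.3, 10.2 and 10.2 CPM and 14.8, 23.4 and 14.2 CPM, and in HCC2935 35.8, 38 and 39.2 CPM, 8.17, 7.57 and 6.45 CPM and 15, 12.1 and 19.2 CPM, again without overlap. XRCC2 had log2 fold changes of -2.65 to -2.38 in the acute arm and -1.65 to -1.30 in DTPs, and neither effect passed the test for a difference between lines (edgeR adjusted p = 0.622 and 0.573).

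RAD51B, another paralog (chromosome 14, 67819779 to 68730218, plus strand), passed the test against DMSO in 1 line in each treated arm. In PC9 it stood at 3.12, 5.41 and 4.17 CPM in DMSO, 4.48, 3.19 and 4.53 CPM in the acute arm and 4.38, 3.34 and 4.08 CPM in DTPs, and in HCC827 at 9.87, 8.12 and 9.61 CPM, 7.26, 4.71 and 5.6 CPM and 7.93, 7.18 and 6.02 CPM. In H1975 it stood at 12.2, 8.76 and 10.5 CPM, 6.82, 11.4 and 11.1 CPM and 7.71, 5.65 and 5.71 CPM, and in HCC2935 at 6.05, 5.04 and 5.64 CPM, 4.64, 6.18 and 5.31 CPM and 8.76, 4.58 and 8.19 CPM. It fell in the acute arm of HCC827 and in DTPs of H1975, and both calls were lost without any of 4 and any of 3 libraries. RAD54L and RAD51AP1, which stimulate strand exchange, fell in all lines in both arms, by 2.06 to 2.59 and by 1.81 to 2.71 under acute osimertinib. XRCC3 did so too, by 0.51 (HCC827) to 1.81 (H1975) in DTPs, with a difference between lines (edgeR adjusted p = 1.40e-05). RAD51D had log2 fold changes of 0.01 in PC9 and 0.01 in HCC827 in DTPs, which did not pass, and fell in H1975 and HCC2935, by 0.66 and 0.83. RAD51D shares its strand with RAD51L3-RFFL, XRCC3 lies opposite KLC1 and RAD54L opposite LRRC41.

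All 5 genes of resection, unwinding and end joining fell in the acute arm of every line. BLM, a helicase that dissolves recombination intermediates (chromosome 15, 90717327 to 90816165, plus strand), had the lowest mean of all 32 members in DTPs. In PC9 it stood at 33.9, 33.2 and 33.5 CPM in DMSO, 6.09, 5.42 and 12 CPM in the acute arm and 10.0, 16.1 and 14.2 CPM in DTPs, and in HCC827 at 22.9, 26.4 and 20.8 CPM, 4.41, 4.52 and 4.09 CPM and 7.88, 11.5 and 9.02 CPM. In H1975 it stood at 24.8, 33 and 30.0 CPM, 6.65, 4.6 and 5.5 CPM and 6.93, 13.3 and 10.7 CPM, and in HCC2935 at 50.2, 52.9 and 50.1 CPM, 10.4, 10.1 and 16.7 CPM and 12, 11.9 and 16.7 CPM. All treated libraries lay below DMSO in every line, by a log2 fold change in DTPs of -1.93 (HCC2935) to -1.29 (HCC827).

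RBBP8 (chromosome 18, 22798261 to 23026488, plus strand) changed least of this role. In PC9 it stood at 42.9, 37.6 and 49.7 CPM in DMSO, 12.5, 12 and 16 CPM in the acute arm and 25.7, 24.5 and 27 CPM in DTPs, and in HCC827 at 52, 53.7 and 45.2 CPM, 35.5, 40.8 and 40.8 CPM and 41.4, 32.6 and 28.8 CPM. In H1975 it stood at 41.1, 59.1 and 46.1 CPM, 26.3, 29.3 and 23.7 CPM and 30.2, 44.4 and 39.2 CPM, and in HCC2935 at 166, 160.3 and 160.3 CPM, 101, 119.9 and 91.6 CPM and 80.7, 82.9 and 80.7 CPM. Its acute change differed between lines, from -1.73 in PC9 to -0.40 in HCC827 (edgeR adjusted p = 1.44e-04). In HCC827 the RBBP8 call was lost without any of 2 libraries in the acute arm and of 4 in DTPs. EXO1, an exonuclease of resection and of mismatch repair, had the largest acute fall of this role in each of the 4 lines, with log2 fold changes from -2.17 in PC9 to -3.06 in HCC2935, and in DTPs of PC9 it fell by 0.73. POLQ, the polymerase of end joining by short repeats, fell by 0.93 (PC9) to 1.85 (H1975) in DTPs and RECQL4, a helicase, by 0.78 to 1.23.

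The mismatch repair genes did not share a direction. MSH6 (chromosome 2, 47695530 to 47810101, plus strand) stood in PC9 at 301, 289 and 285 CPM in DMSO, 114, 97.4 and 139.8 CPM in the acute arm and 131, 124 and 143 CPM in DTPs, and in HCC827 at 135, 141 and 114 CPM, 74.8, 68.8 and 80.6 CPM and 92.5, 106 and 89.3 CPM. In H1975 it stood at 185, 204 and 209 CPM, 116, 118 and 91.9 CPM and 127, 163 and 145 CPM, and in HCC2935 at 244, 217 and 209.8 CPM, 82.1, 67.9 and 75.7 CPM and 109, 108 and 128 CPM. MSH6 fell in every line, and in DTPs more in PC9 (-1.18) and HCC2935 (-0.97) than in H1975 (-0.49) and HCC827 (-0.42), with a difference between lines (edgeR adjusted p = 4.23e-04). The HCC827 call in DTPs was lost without any of 4 libraries (edgeR adjusted p up to 0.10). MSH3, which finds larger loops with the same partner as MSH6 (chromosome 5, 80654648 to 80876460, plus strand), stood in PC9 at 23.3, 24 and 26.2 CPM in DMSO, 25.9, 25.5 and 25.6 CPM in the acute arm and 23.9, 22.5 and 22.9 CPM in DTPs, and in HCC827 at 28, 30.3 and 27.7 CPM, 23.6, 27 and 28.3 CPM and 24.7, 25.1 and 24.4 CPM. In H1975 it stood at 23.7, 29 and 27.8 CPM, 25.4, 25.5 and 23.8 CPM and 28.5, 28.7 and 25.7 CPM, and in HCC2935 at 25.4, 26.1 and 22.1 CPM, 16, 13.3 and 18.3 CPM and 21.1, 22.3 and 21.7 CPM. Against DMSO only the acute fall in HCC2935 passed for MSH3 (log2 fold change -0.66, edgeR adjusted p = 0.00537). PMS2, the nuclease subunit that nicks the new strand, was singled out after its values were seen, as the other member that fell in no line in either arm. PMS2 stood in HCC2935 at 41, 41.2 and 39.4 CPM in DMSO, 54.1, 54.4 and 54.5 CPM in the acute arm and 60.9, 69.7 and 66.6 CPM in DTPs. It rose under acute osimertinib in PC9 (0.26), H1975 (0.47) and HCC2935 (0.40) and had a value of -0.26 in HCC827 that did not pass (difference between lines, edgeR adjusted p = 1.12e-04). PMS2 has 11 named pseudogenes and MSH6 lies opposite FBXO11, so their counts are uncertain where reads could be shared.

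DTPs were then compared with the acute arm, to ask whether the members stood differently after 21 days of drug than after 24 h. In each line more members were higher than lower in DTPs. In PC9, 16 were higher and none lower, against 19.2% and 20.6% of all genes. In HCC827, 15 were higher and 1, FANCF, lower, against 15.7% and 13.8%. In H1975, 6 were higher and 1, PMS2, lower, against 11.2% and 14.9%, and this number was 0 without acute replicate 2 or without DTP replicate 2, 1 without acute replicate 3 and 3 without DTP replicate 3. In HCC2935, 13 were higher and 3 (FANCE, FANCL and RBBP8) lower, against 22.0% and 20.4%, and 9 or 10 were called in either direction without DTP replicate 3, DTP replicate 1 or acute replicate 2. FANCA, BRCA1, XRCC2 and RAD54L were higher in all 4 lines, and the share of all genes higher in all 4 was not computed. XRCC2 was higher by 0.71 (H1975) to 1.09 (PC9) on the log2 scale, BRCA1 by 0.54 to 1.03, and FANCB by 2.00 in HCC827. UBE2T was listed with -1.04 in HCC2935 and 0.88 in PC9, neither of which passed.

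Removal of the drug for 24 h was followed by higher levels of many members in PC9 and HCC2935. In PC9, 14 members were higher in the short washout than in DTPs and none lower, against 12.1% of all genes higher, with a median log2 fold change of 0.34. XRCC2 stood at 17.9, 18.6 and 15 CPM in DTPs and 21.1, 24.3 and 26.8 CPM in the short washout of PC9 (0.49, edgeR adjusted p = 0.0222), and MSH6 at 131, 124 and 143 CPM and 172, 173 and 173 CPM. Neither pair of groups overlapped. The count in PC9 was 8 without DTP replicate 3 or short washout replicate 3 and 9 without DTP replicate 1 or short washout replicate 2, and 1 when all 15 libraries of the line shared the fit. In HCC2935, 14 members were higher and none lower, against 2.47% of all genes, with a median of 0.72. EXO1 had the largest difference, 1.93 (edgeR adjusted p = 0.00437), and BLM stood at 12, 11.9 and 16.7 CPM in DTPs and 31.4, 36.6 and 37.3 CPM in the short washout (1.38). The count in HCC2935 was 8 without short washout replicate 1 or 2 and 6 without replicate 3. The 10 members higher in both lines were FANCA, FANCI, BRIP1, XRCC2, XRCC3, RAD51AP1, EXO1, BLM, RECQL4 and MSH6. How many of all genes were higher in both was not computed.

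In H1975 no gene of all tested passed between short washout and DTPs without pairing (0% of all genes higher, 1950 genes at an unadjusted p under 0.05, and 22 of the 32 members), although the members' median was 0.56. Libraries with the same replicate number deviated together in this comparison, and with the replicate number as a block 19 members were higher and none lower, against 6.70% of all genes higher. DESeq2 without the block called 10 members, and edgeR without DTP replicate 2 called 13. FANCA stood at 31.5, 38.3 and 33.6 CPM in DTPs and 61, 60.3 and 58.9 CPM in the short washout of H1975 (edgeR adjusted p = 0.173, and 5.49e-04 with the block). BLM stood at 6.93, 13.3 and 10.7 CPM and 16.1, 18 and 15.2 CPM, and BRCA2 at 5.12, 7.26 and 3.87 CPM and 12.1, 13.7 and 13.2 CPM. For these 3 genes every short washout library lay above every DTP library. In HCC827 no gene passed (0% of all genes higher, 197 genes at an unadjusted p under 0.05, none of them a member, and no member called by DESeq2), and the members' median was 0.06. Libraries with the same replicate number deviated together here too. With the replicate block in edgeR 934 genes had an unadjusted p under 0.05. After adjustment no gene was higher and 2 of all genes were lower. XRCC2 in HCC827 stood at 13.5, 17 and 12.9 CPM in DTPs and 13.7, 15.3 and 14.4 CPM in the short washout, which overlapped.

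After the long washout the lines differed further. In PC9, after 7 days, 13 members were higher than in DTPs and none lower, against 11.8% of all genes higher, with a median log2 fold change of 0.65. Replicate 3 of the PC9 long washout stood apart: XRCC2 was at 36.9, 42.7 and 22.9 CPM in replicates 1, 2 and 3, FANCA at 48.5, 47.4 and 23.5 CPM and FANCD2 at 52.9, 58.1 and 31.6 CPM. Without that library 23 members were called, and without any of the other 5 the count was 0 or 1. In HCC2935, after 10 days, 14 members were higher and none lower, against 2.99% of all genes higher, with a median of 0.80. EXO1 had the largest difference that passed, 1.67 (edgeR adjusted p = 0.0153). The HCC2935 count was 0 without long washout replicate 2 or 3 or DTP replicate 1, 2 without DTP replicate 2, and 0 with the replicate block. In HCC827, after 4 days, no gene passed (0% of all genes higher, 434 genes at an unadjusted p under 0.05, none of them a member, and no member by DESeq2), with a median of -0.01. In H1975, after 3 days, no gene was called higher and 2 of all genes, neither of them a member, were lower (0% of all genes, 660 genes at an unadjusted p under 0.05, none of them a member, and no member by DESeq2), with a median of -0.07. In H1975 FANCA stood at 30.5, 37.4 and 30.7 CPM, XRCC2 at 12.8, 17 and 13.2 CPM and BLM at 6.66, 9.72 and 7.6 CPM in the long washout, below every short washout library of the same line, and the difference between the washouts was not tested. The 9 members higher in both PC9 and HCC2935 were FANCI, BRIP1, XRCC2, XRCC3, RAD51AP1, EXO1, BLM, RECQL4 and MSH6. For all genes the share higher in both lines was not computed.

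**Figure D4:**
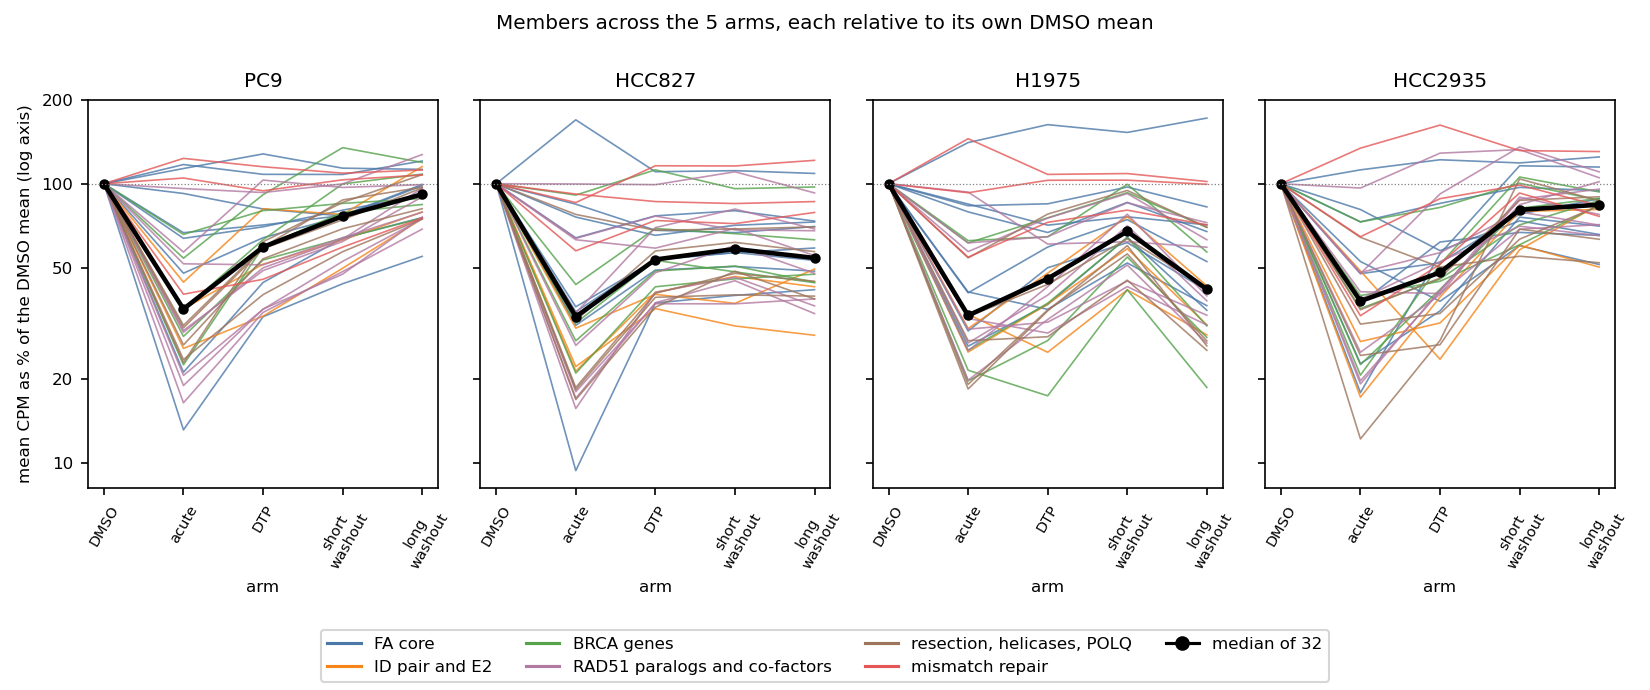
Mean CPM of each member as a percentage of its DMSO mean (log axis) across the 5 arms (horizontal axis), 1 panel per line, coloured by role, with the median of the 32 in black. The median was lowest in the acute arm in all 4 lines, and in the long washout it reached 91.7% in PC9 and 84.1% in HCC2935 but 54.2% in HCC827 and 41.8% in H1975.

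Set against DMSO, the long washout showed how far the members had returned. In PC9 the median member stood at 35.5% of its DMSO mean in the acute arm, 59.3% in DTPs, 76.5% in the short and 91.7% in the long washout, and 1 member, FANCB, was lower in the long washout than in DMSO by the test and none higher, against 14.7% and 15.9% of all genes. Without long washout replicate 2 it was 8 members, without replicate 3 it was 3, and without replicate 1, DMSO replicate 2 or DMSO replicate 3 it was 0. In HCC2935 the medians were 37.9%, 48%, 80.6% and 84.1%, with 11 members lower and 1, PMS2, higher in the long washout, against 18.9% and 21.0% of all genes. FANCD2, FANCE and RBBP8 were the lowest of these, at -0.96, -0.93 and -0.91 on the log2 scale. In HCC827 the medians were 33.4%, 53.5%, 58.3% and 54.2%, with 25 members lower and none higher, against 19.9% and 19.7%. In H1975 they were 33.7%, 45.7%, 67.5% and 41.8%, with 29 lower and 1, FANCF, higher, against 28.2% and 26.8%. In PC9 MKI67 stood at 161 to 189 CPM in DTPs and at 265 to 439.9 CPM in the long washout. In HCC2935 it stood at 62.6 to 138 CPM in DTPs and at 212 to 373 CPM in the long washout. From the acute arm to DTPs the median member rose in every line. Over that step mean MKI67 fell in PC9 (198 to 173 CPM) and HCC2935 (126 to 96.6 CPM). It rose in HCC827 (101 to 175 CPM) and H1975 (150 to 219 CPM), and libraries of both arms overlapped in every line. MKI67 is 1 of the 10 proliferation markers listed below, and not all moved with it. Over this step 3 of the 10 were higher and 1 lower in PC9, against 19.2% and 20.6% of all genes. In HCC2935, 2 were higher and none lower, against 22.0% and 20.4%. In HCC827, 9 were higher and none lower, against 15.7% and 13.8%. In H1975 none was called, against 11.2% and 14.9%. In the short washout mean MKI67 was 199 CPM in PC9 and 162 CPM in HCC2935, against 465 and 488 CPM in DMSO. Mean TOP2A was 156 and 225 CPM there, against 434 and 682 CPM. Mean MCM2 was nearer to DMSO, at 161 and 176 CPM, against 210 and 211 CPM. CCNE2 alone of the 10 had a mean above DMSO in these lines, at 11.2 and 9.77 CPM, against 7.43 and 8.75 CPM. The part of MKI67 and the other markers in the result was not tested.

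Whether an effect differed between the lines was tested as the interaction of line and arm over 24 libraries. Under acute osimertinib 12 of the 32 members differed, against 40.5% of all genes tested, and the share of members lay near that background. In DTPs 15 differed, against 61.6% of all genes, below the background. In the long washout 26 differed, against 52.4%, with durations that also differed between the lines. XRCC2, which did not pass for the acute or the DTP effect, stood in the long washout at 68.7% of its DMSO mean in PC9, 38.6% in HCC827, 26.8% in H1975 and 77.6% in HCC2935 (interaction, edgeR adjusted p = 5.04e-05). BLM stood at 74.8%, 44.7%, 27.3% and 63.2% in the same order (edgeR adjusted p = 1.73e-04). BRCA2 stood at 84.2%, 44.2%, 18.6% and 83.8% (edgeR adjusted p = 1.08e-04). MSH6, MSH3, PMS2, FANCD2, RAD51C and RAD51D did not pass.

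Other genes of the same pathways and markers of dividing cells were set beside the members. Of 17 further Fanconi genes, such as MUS81, which cuts DNA at crosslinks, 10 fell and 4 rose in DTPs of PC9. In the other lines 5 (HCC827), 7 (H1975) and 6 (HCC2935) fell and 3 rose in each. The medians were -0.37 (PC9) to -0.16 (H1975) on the log2 scale over the lines. Of all genes, 35.9% fell and 35.4% rose in DTPs of PC9, and 17.2% and 19.4% in those of HCC827. These shares were 23.4% and 22.4% in H1975 and 27.2% and 25.3% in HCC2935, and they also apply to the DTP counts of the lists that follow. Of 25 further recombination genes, such as RPA1, which coats resected DNA, 13 to 18 fell and 1 to 3 rose, with medians of -0.60 (H1975) to -0.40 (HCC2935). Of 12 further mismatch repair genes, 9 to 12 fell and none rose, with medians of -1.28 (HCC2935) to -0.95 (HCC827), and most of these (PCNA, the RFC clamp loaders, LIG1 and the POLD subunits) also copy DNA. Of 10 genes of non-homologous end joining, such as PRKDC, 4 to 6 fell and 1 rose in each line, with medians of -0.52 (PC9) to -0.25 (H1975). Of 10 proliferation markers, such as TOP2A, 9 or 10 fell and none rose, with medians of -1.69 (H1975) to -1.46 (HCC827), below those of the 32 members in each line. At the short washout of PC9 the medians were 0.34 for the members and 0.21 for the proliferation markers. Of the markers, 5 were higher than in DTPs, against 12.1% of all genes. In HCC2935 the medians were 0.72 and 0.58, with 2 markers higher, against 2.47% of all genes. The log2 fold changes of the markers ran from 0.32 to 1.33 in HCC2935 and from 0.02 to 0.66 in PC9. In both lines some markers thus moved more than the median member. In the other lines the order was the opposite, with 0.56 for the members and 0.79 for the markers in H1975. There 0 markers were higher without and 10 with the replicate block, against 0% and 6.70% of all genes. In HCC827 the medians were 0.06 and 0.23, and no marker was called, against 0% of all genes higher. At the long washout the medians of members and markers were 0.65 and 1.15 in PC9, -0.01 and -0.06 in HCC827, -0.07 and -0.27 in H1975, and 0.80 and 1.35 in HCC2935. The differences between the lists were not tested, and the part of dividing cells in the members' levels was not tested.

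**Figure D5:**
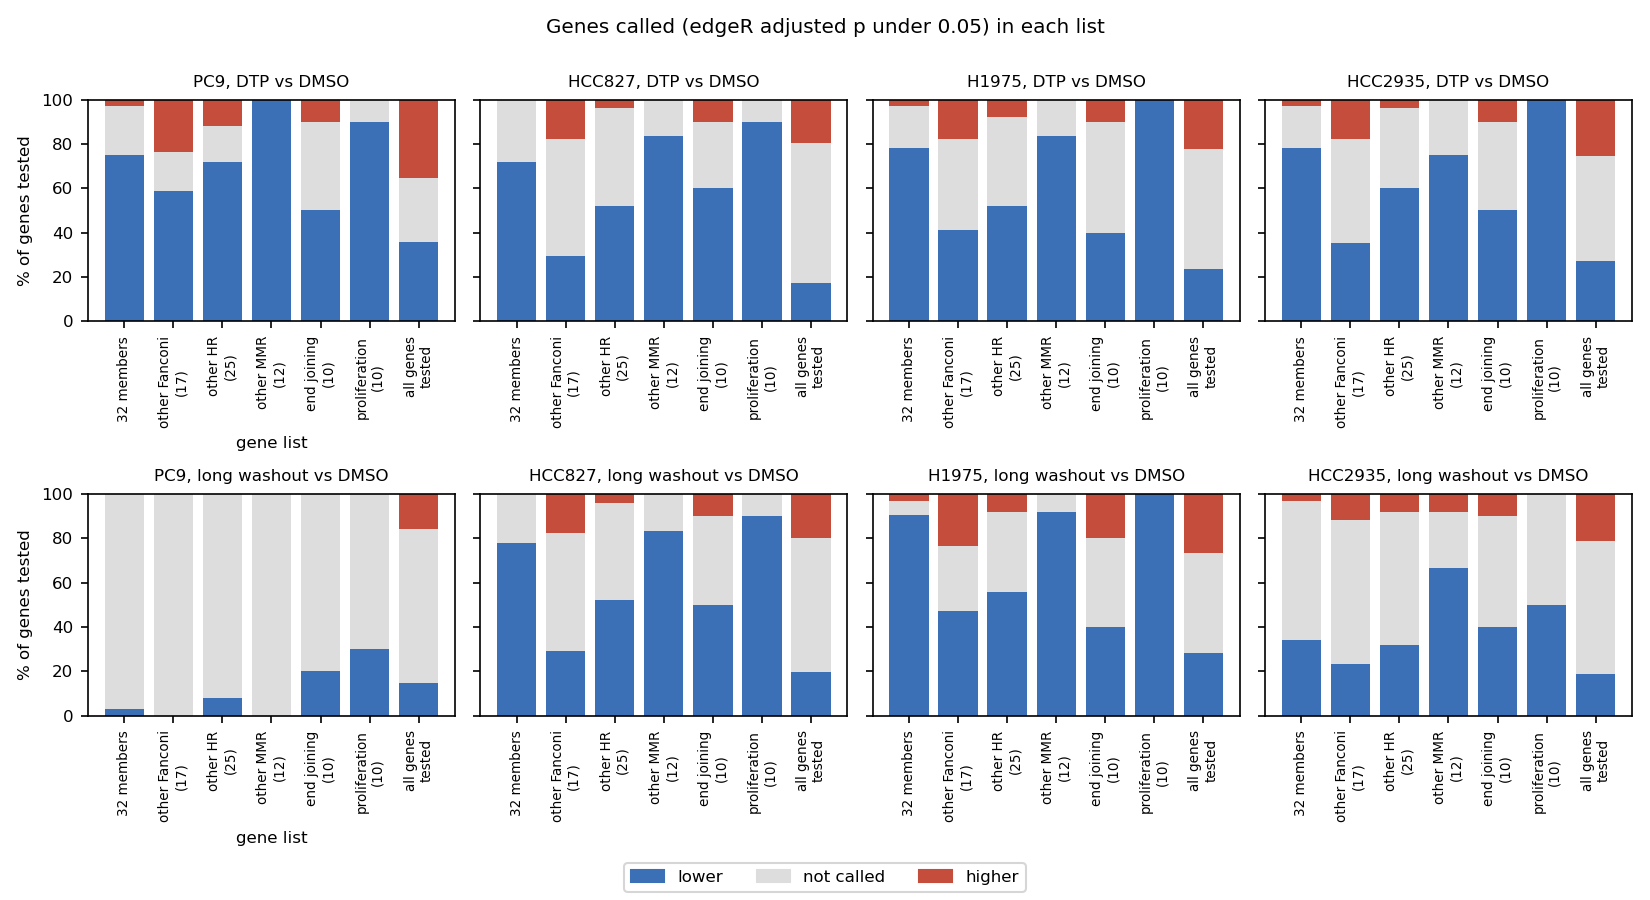
Share of the genes tested (vertical axis, %) that were lower (blue), not called (grey) or higher (red) at an edgeR adjusted p under 0.05 in DTPs (top) and in the long washout (bottom) against DMSO, for the 32 members, 5 further gene lists and all genes tested in each line. The members' blue bars stand above those of all genes in DTPs of every line and in the long washout of HCC827, H1975 and HCC2935, and in PC9 the long washout bar of the members lies below that of all genes.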

How the data were processed

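RNA was sequenced as paired reads from poly(A)-selected libraries of 4 lines, 5 arms and 3 replicates each. The authors deposited estimated counts per gene and log2 TPM values (with a pseudocount of 0.01), both for 19712 genes; the submitters' processing notes name hg38, HISAT2 2.1.0 and Salmon 0.8.2, and the strand used in counting is not given in the sources used here. Estimated counts were rounded to whole numbers. Genes passing filterByExpr were tested in edgeR 4.0.16 (R 4.3.3) with TMM scaling and the quasi-likelihood F-test, on the 6 libraries of each comparison, with Benjamini-Hochberg adjustment over all genes and a threshold of 0.05. Differences between lines were tested as the interaction of line and arm with 3 degrees of freedom over 24 libraries. All 32 members passed the filter in every comparison. DESeq2 1.42.0, limma 3.58.1 on the log2 TPM values, RLE scaling, no filter, a replicate block, all 15 libraries of a line in 1 fit, and leaving out each library were the alternatives. The edgeR script was tested on simulated data. The study states no model for these comparisons. Values in every library were given, in each role, for the members with the largest and the smallest absolute mean log2 fold change of DTPs against DMSO. The members and lists were chosen with earlier results of these data known. The p-values measure the spread between the replicates labelled biological, and depth limits UBE2T most.

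Replicate numbers come from the sample titles. Libraries of equal number deviated together in all 3 pairs (correlation above 0.1 over genes) for short washout against DTPs in HCC827 (0.402 to 0.694) and H1975 (0.249 to 0.599) and for acute against DMSO in HCC2935 (0.126 to 0.357), and not in the other 21 comparisons. Gene positions are those of GENCODE 29 (hg38), and promoter windows are from RefSeq, GRCh38.p14.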

Additional observations from a re-analysis of the deposited data

Results flagged for a closer look

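The effects below differed between the 4 lines by the interaction of line and arm (edgeR quasi-likelihood F-test, adjusted over all genes). They cover the 12 members whose values were given in every library, and the causes were not tested. Groups of 3 were not tested for outlying libraries.

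Under acute osimertinib the difference had an edgeR adjusted p of 0.0121 for FANCC, 1.44e-04 for RBBP8, 0.00384 for MSH6 and 0.0127 for MSH3. RBBP8 fell in all 4 lines, MSH3 in HCC2935 alone by the test, and FANCC in HCC827 and HCC2935. In DTPs the edgeR adjusted p was 3.34e-04 for FANCC, 0.0175 for UBE2T, 0.00858 for BRCA2, 0.0134 for PALB2, 0.0388 for RAD51B and 4.23e-04 for MSH6. PALB2 had a log2 fold change of 0.18 in HCC827, which did not pass, and of -0.44 in H1975.

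For the long washout against DMSO the edgeR adjusted p was 0.00694 for FANCA, 0.0036 for FANCC, 0.00805 for UBE2T, 1.08e-04 for BRCA2, 0.0349 for PALB2, 5.04e-05 for XRCC2, 0.023 for RAD51B, 1.73e-04 for BLM and 0.00332 for RBBP8. UBE2T stood at 115% of its DMSO mean in PC9 and 28.6% in HCC827. The length of the washout differed with the line and cannot be told apart from it.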

How the results depend on the processing

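The alternatives gave 9216 member values, called or not. None that was called there or in the main fit had the opposite direction. The alternatives reuse libraries of the main fit. Of 156 counts under alternatives other than leaving out a library, 145 lay within 1.5 times the main count. The others were, for DTPs against the acute arm in H1975 (7 members called), 4 with the replicate block, 3 with limma, 14 with DESeq2 and 16 with all 15 libraries; for the short washout, 1 in PC9 with all 15 libraries (against 14), and in H1975 (against 0) 19 with the replicate block, 10 with DESeq2 and 1 with all 15 libraries; for the long washout against DTPs in HCC2935, 0 with the replicate block (against 14); and for the long washout against DMSO in PC9 (against 1), 4 with DESeq2 and 2 with all 15 libraries. The block moved no other count of members by over 1.5 times.

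With 1 library left out, counts ranged from 0 to 8 (H1975) and 9 to 16 (HCC2935) for DTPs against the acute arm, from 8 to 15 (PC9), 0 to 13 (H1975) and 6 to 15 (HCC2935) for the short washout, from 0 to 23 (PC9) and 0 to 14 (HCC2935) for the long washout against DTPs, and from 0 to 8 (PC9) for the long washout against DMSO. The cause was not tested. Of 3456 values of the 12 members given by library, 194 were no longer past the threshold and 90 newly past it. On the log2 TPM values the median of all genes shifted to 0.29 in PC9 and 0.17 in HCC2935 for DTPs against DMSO, where 20 members fell and 2 rose in PC9 and 24 fell and 2 rose in HCC2935, and the members' median in the long washout of PC9 moved from -0.12 to 0.03, with none lower and 1 higher. UBE2T, with as few as 3 counts, is limited by depth.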
